A study of Mus musculus with 2 samples.

Results

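The 10 genes described here encode RNA-binding proteins that regulate splicing in neurons: Rbfox1, Rbfox2, Rbfox3, Elavl1, Elavl2, Elavl3, Elavl4, Nova1, Nova2 and Ptbp2. They were taken by name from the GENCODE M21 annotation, all 10 were found, and they stand among 21938 protein-coding genes on chromosomes 1 to 19, X and Y. DNase-seq, in which DNase I cuts accessible chromatin and the cut ends are sequenced, was carried out on hippocampus from male mice of the strain B6CASTF1/J at an age of 14 days. B6CASTF1/J mice are F1 hybrids of C57BL/6 and CAST/EiJ, and the tissue was labelled as an unnamed layer of the hippocampus. The series holds 1 group of 2 biological replicates with no treatment and no second tissue. Each label speaks of 3 males, both carry the same donor identifier, and which animals went into which replicate is not stated. Each SD therefore measures the spread between these samples, which may be partly technical, and no test between conditions was possible.

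RNA-binding proteins of these families decide which exons stay in a transcript. Rbfox proteins bind UGCAUG in introns next to alternative exons, and Rbfox3 is the NeuN antigen used to stain neuronal nuclei. Elavl proteins bind stretches rich in uridine: Elavl1 (HuR) is made in most cell types, whereas Elavl2 (HuB), Elavl3 (HuC) and Elavl4 (HuD) are mainly neuronal. Nova1 and Nova2 shape the splicing of synaptic transcripts, and Ptbp2 represses exons in young neurons, where it takes over from its relative Ptbp1. Accessible chromatin at their genes shows where regulatory DNA lies open, not how much RNA is made.

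Per replicate, peaks are stretches of dense DNase I cutting, each with a signal value from the authors, whose unit is not stated, and footprints are short stretches protected from cutting. Replicate 1 held 115072 peaks and 285181 footprints, and replicate 2 held 95711 peaks and 244137 footprints. The read depth behind them is unknown here. Of the peaks within the 10 genes and 10 kb either side, 120 of 188 in replicate 1 (63.8%) and 119 of 165 in replicate 2 (72.1%) overlapped a peak of the other replicate by at least 1 bp. Over all peaks these shares were 65.3% and 78.4%. Shared peaks had lower values in replicate 1, with a median ratio of replicate 1 to replicate 2 of 0.876 at the 10 genes and 0.867 over all peaks. The tissue was bulk, so fewer open cells and less opening per cell cannot be told apart. Among marker genes, 6 of 6 neuronal promoters held a peak in both replicates, against 2 of 4 for astrocytes, 1 of 4 for microglia, and 1 of 3 each for endothelium, liver and striated muscle. The one liver promoter, Alb, had a mean value of 0.188, and the one muscle promoter, Ckm, a mean of 2.29. Of the endothelial markers Kdr had peaks in both replicates (0.516 and 0.783), Pecam1 in replicate 1 only (0.283) and Cldn5 in neither. Of the microglial markers Csf1r had peaks in both (0.834 and 0.840), Cx3cr1 and P2ry12 in replicate 1 only (0.417 and 0.410) and C1qa in neither. How far the mixture of cells set the values of the 10 genes was not tested.

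All 10 genes had a peak within 1 kb of an annotated start site in both replicates, a state shared by 64.3% of protein-coding genes (14116 of 21938). The highest promoter peak of each gene averaged between 1.75 and 7.11, with a median of 3.48 over the 10 genes and 2.87 over the 14116 genes. Both comparisons take every annotated start of a gene, and the 10 genes have more places for a peak. With overlapping windows joined, they have 42 promoter windows, against 44470 for the 21938 genes. Nova1 and Elavl1 stood at the top, and Rbfox1, Rbfox3 and Elavl4 at the bottom. The first 4 places went to Nova1, Elavl1, Nova2 and Elavl2 in that order in both replicates. In the order of the means, neighbours had overlapping replicate values except at a pair of gaps, between Elavl2 and Rbfox2 and between Ptbp2 and Elavl3.

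**Figure D1:**
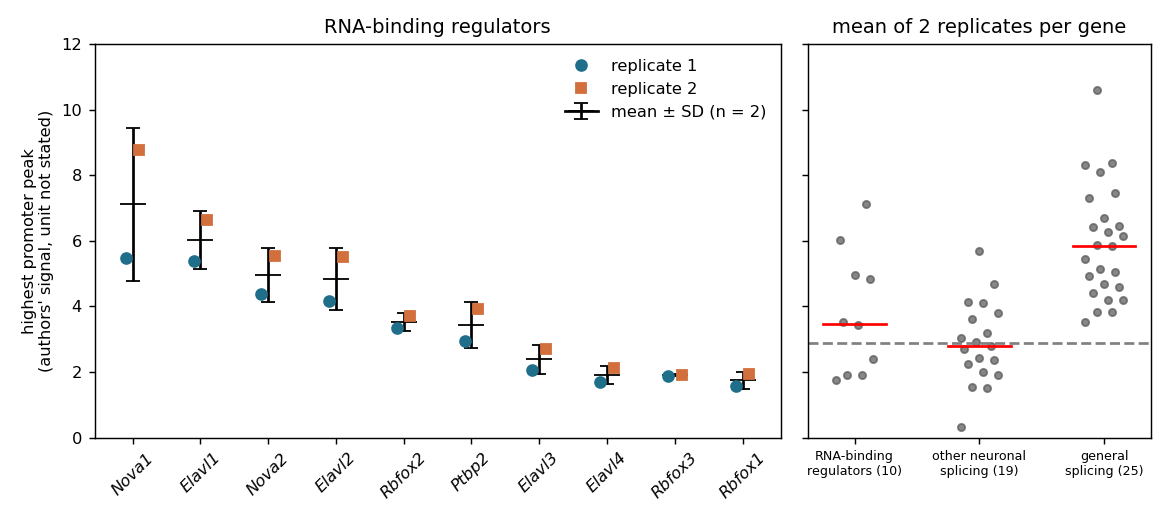
Left, the highest promoter peak of each of the 10 genes in replicate 1 (circles) and replicate 2 (squares), with the mean ± SD (n = 2), in the authors' signal per peak. Right, the mean of both replicates per gene (points) for the 10 genes, 19 other neuronal splicing regulators and 25 general splicing factors, with the median of each list (red line) and of the 14116 protein-coding genes open at a promoter in both (dashed line, 2.87). Nova1 has the highest value and the widest gap between its replicates, and the lowest general splicing factor, at 3.53, lies just above the median of the 10 genes, 3.48.

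Nova1 had the strongest promoter of the 10 genes and no shared peak outside promoters, and Nova2 had a strong promoter with shared peaks upstream. Nova1 (chr12:46694517-46818929, minus strand) had a promoter value of 5.46 in replicate 1 and 8.76 in replicate 2, a mean of 7.11 ± 2.33 (SD, n = 2). That mean exceeded those of 97.1% of the genes open at a promoter in both, although its replicates also lay farther apart than those of any other of the 10 genes. The peak had the same borders in both replicates, chr12:46819421-46819660, and its centre lay 612 bp upstream of the nearest start site rather than on it. Lower shared peaks stood nearer the starts in the same window. One, chr12:46818881-46819200 in replicate 1, was centred 112 bp upstream of a start there, with 1.68 and 2.71. Another, chr12:46818061-46818800 in replicate 1, had 1.49 and 1.69. The highest peak held 3 footprints found in both replicates. They are shown here in capitals on the minus strand, the strand of the gene, because they mark the protected letters of the strongest promoter in the group:

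Nova1 upstream peak: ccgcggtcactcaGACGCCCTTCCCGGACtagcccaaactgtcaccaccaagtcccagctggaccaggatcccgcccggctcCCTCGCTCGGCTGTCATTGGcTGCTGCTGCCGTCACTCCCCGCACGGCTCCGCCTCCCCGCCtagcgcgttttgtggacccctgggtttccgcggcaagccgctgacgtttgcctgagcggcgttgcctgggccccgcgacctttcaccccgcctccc

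One of the 3 carries CCAAT, the letters bound by the trimeric factor NFY, which reads ATTGG on the strand printed. Beyond its promoter Nova1 was nearly bare: replicate 1 had 2 peaks and replicate 2 had 1 elsewhere in the gene and its 10 kb flanks, and none overlapped. Their values in replicate 1 were 0.262 and 0.332. Nova1 was the one gene of the 10 without a shared peak outside promoters, a feature that 53.5% of protein-coding genes have (11742 of 21938) and that 9 of the 10 genes (90.0%) have. When all genes were split by length into 10 equal bins, Nova1, at 124 kb, fell among the 2194 longest, whose median was 5 shared peaks. That bin also holds far longer genes, such as Rbfox1 at 1526 kb, so its median is not that of genes as long as Nova1.

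Nova2 (chr7:18925888-18965319, plus strand) had promoter values of 4.38 and 5.54 in replicates 1 and 2, a mean of 4.96 ± 0.814. Its main peak also stood off the start site, 507 bp upstream, with the same borders in both replicates. Unlike Nova1, its 39.4 kb carried 5 shared peaks outside promoters, against a median of 1 in the 2193 genes of its length bin, and 93.6% of those genes had fewer. Of these 5, 3 lay upstream of the gene and 2, which overlap each other, lay in an exon 32.0 and 32.2 kb from the 5′ end. The strongest, chr7:18922941-18923180, had values of 2.20 and 1.97 and lay 2.83 kb upstream of the start. Its 240 bp are shown on the plus strand, with the 3 footprints shared by the replicates in capitals:

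Nova2 far upstream peak: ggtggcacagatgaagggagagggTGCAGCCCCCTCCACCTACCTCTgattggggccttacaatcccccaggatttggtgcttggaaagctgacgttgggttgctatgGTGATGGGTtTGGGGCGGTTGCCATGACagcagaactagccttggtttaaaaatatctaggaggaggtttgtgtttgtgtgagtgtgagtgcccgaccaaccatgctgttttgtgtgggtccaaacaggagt

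The last footprint contains GTTGCC, part of the motif of the RFX factors, and directly before it GGGCGG, the letters of the SP and KLF factors, which share 1 G:

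Nova2 RFX letters: gggtttggggcgGTTGCCatgacagcag

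Across all 90769 shared footprints of replicate 1, searched on both strands with 5 bp added to each side, GTTGCC stood in 1.52% and GGGCGG in 11.4%. At the 10 genes the figures were 3 of 126 (2.38%) and 9 of 126 (7.14%). A match of letters is a description and does not show that a factor was bound.

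Elavl1 (chr8:4285382-4325413, minus strand), the broadly expressed member of its family, had promoter values of 5.39 and 6.64, a mean of 6.01 ± 0.882, above 92.1% of genes with a promoter peak. Its peak centre lay 105 bp upstream of the nearest start in replicate 1 and 95 bp upstream in replicate 2. The same window holds a start of Ccl25, a chemokine gene, so the peak cannot be assigned to Elavl1 alone. Elavl2 (chr4:91250763-91400785, minus strand) followed with 4.16 and 5.49, a mean of 4.82 ± 0.940. Its main peak was not at the 5′-most start but 24.3 kb inside the gene, where 4 start sites cluster. The window at the 5′ end held peaks in replicate 2 only, the highest with a value of 0.424. Another Elavl2 window, 27.8 kb in, was open in both replicates at 1.70 and 2.04, a mean of 1.87 ± 0.236; it also holds the start of the microRNA gene Mir6402.

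Elavl1 and Elavl2 shared a feature in these main peaks: each had CCAAT in a pair of footprints found in both replicates. They are printed here with the CCAAT footprint of Nova1, because the 3 genes rank among the 4 strongest promoters, each on the strand that reads CCAAT and with that motif in capitals:

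Elavl1 footprint A, chr8:4325111-4325140, minus strand: cactgaCCAATagcagagcgcgctgagcag
Elavl1 footprint B, chr8:4325160-4325179, minus strand: gacagccatgccaaCCAATg
Elavl2 footprint A, chr4:91376537-91376556, minus strand: gtctcgcCCAATcagaaacc
Elavl2 footprint B, chr4:91376576-91376605, minus strand: cctagCCAATcacctagcagagcttcgcct
Nova1 footprint, chr12:46819554-46819583, plus strand: agcagCCAATgacagccgagcgagggagcc

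Elavl1 footprint A is cut to 30 bases of a longer footprint. In the central 201 bp of the highest promoter peak, CCAAT on either strand was found at 6 of the 10 genes (60%), Rbfox3, Elavl1, Elavl2, Elavl3, Nova1 and Nova2. Over all 14116 genes with a promoter peak it was found at 4163 (29.5%). Within shared footprints it stood in 7 of 126 (5.56%) at the 10 genes and in 3.59% of all. The Rbfox3 peak counted here is not a promoter peak with a 500 bp window or with basic transcripts. GGGCGG was found at 6 of the 10 main promoter peaks (60%), close to its 55.1% over all genes.

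Elavl3 (chr9:22015005-22052023, minus strand) had 2.07 and 2.70, a mean of 2.39 ± 0.443, and Elavl4 (chr4:110203722-110351909, minus strand) had 1.70 and 2.11, a mean of 1.91 ± 0.288. The 4 Elavl promoters spanned means of 1.91 to 6.01, with Elavl3 and Elavl4 lower than Elavl1 and Elavl2 in both replicates. Elavl4 opened at 3 separate windows in both replicates. Besides the 5′ end, these lay 59.2 kb in, with 0.714 and 0.766, and 64.4 kb in, with 0.997 and 1.21. Elavl3 had 1 open window, at its 5′ end, and a second annotated start 25.6 kb in had no peak.

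Ptbp2 (chr3:119718742-119784466, minus strand) had promoter values of 2.94 and 3.92, a mean of 3.43 ± 0.693, above 60% of genes with a promoter peak. Its peak lay within 33 bp of a start site in both replicates. The other 2 Ptbp2 windows, 41.7 and 58.3 kb in, had no peak in either replicate. Its promoter held 5 shared footprints, and no one of the 17 searched motifs stood in them. Its relative Ptbp1, which represses the same kind of exon outside neurons, was open at 5.20 and 6.20.

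Rbfox2 (chr15:77078990-77307004, minus strand), which is active well beyond neurons, had the strongest promoter of its family at 3.33 and 3.71, a mean of 3.52 ± 0.268. The 2 relatives most tied to neurons and muscle were lower: Rbfox3 (chr11:118489762-118911597, minus strand) had 1.88 and 1.92, a mean of 1.90 ± 0.0247, and Rbfox1 (chr16:5885355-7411526, plus strand) had 1.56 and 1.93, a mean of 1.75 ± 0.261. Replicate values of Rbfox2 did not overlap those of Rbfox1 or Rbfox3. The Rbfox3 and Rbfox1 values did overlap each other.

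Each Rbfox gene opened at 1 or more internal start sites as well. Of 7 Rbfox1 windows, 2 were open in both replicates: the 5′ end, with 1.31 and 1.67, and a start 464 kb inside the gene, with 1.56 and 1.93. The other 5, between 924 and 1468 kb in, had no peak, apart from one of 0.636 in replicate 2 alone at 1308 kb. Rbfox2 was open in both replicates at its 5′ end, at 61.4 kb with 1.72 and 1.15, and at 153 kb with 1.07 and 0.872. Rbfox3 was open in both at 4 of 6 windows, and its highest peak was the one farthest from the 5′ end, at 404 kb. That peak, chr11:118507961-118508180, lay 718 bp upstream of its start site and had the same borders in both replicates. With a 500 bp window or with basic transcripts it did not count as a promoter peak, and the Rbfox3 promoter value was 1.39. At the Rbfox3 window 2.02 kb from the 5′ end the highest peaks of the replicates, 1.26 and 1.55, did not overlap each other. The outermost Rbfox3 start had a peak of 0.594 in replicate 1 only.

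**Figure D2:**
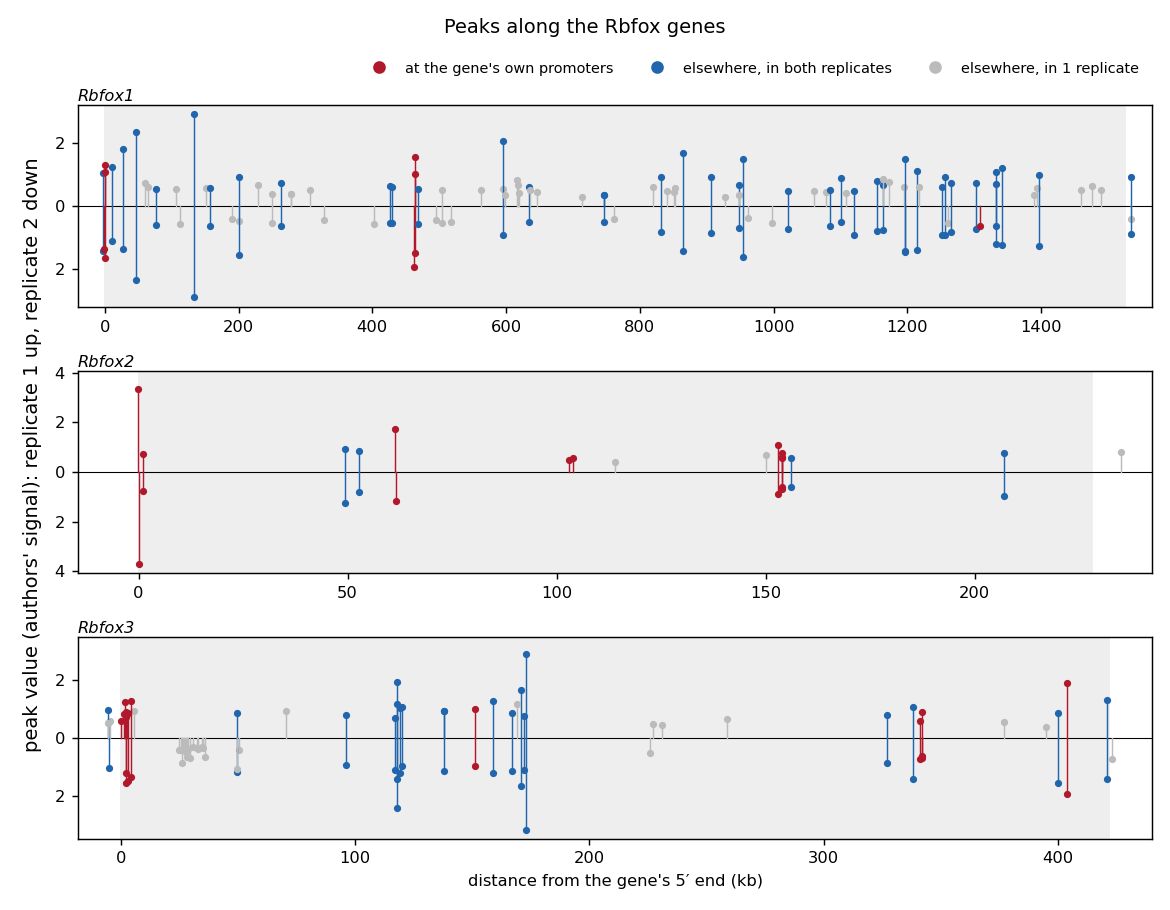
Peaks along Rbfox1, Rbfox2 and Rbfox3, with the distance from the 5′ end in kb on the x axis and the authors' signal on the y axis, replicate 1 upward and replicate 2 downward. Grey shading is the gene, red marks peaks at its own promoters, blue peaks elsewhere in both replicates, and grey peaks elsewhere in 1 replicate. The highest blue peaks of Rbfox1 lie near its 5′ end, and a run of grey peaks seen in replicate 2 only stands between 24.8 and 35.9 kb in Rbfox3.

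Taken over all 10 genes, start sites within overlapping 1 kb windows were joined into 42 promoter windows. Of these, 19 (45.2%) had a peak in both replicates, 4 in 1 replicate and 19 in neither. Over all protein-coding genes, 37.2% of windows (16559 of 44470) had a peak in both. Every one of the 19 open windows serves at least 1 protein-coding transcript. Of the 33 windows with such a transcript 19 were open in both (57.6%), and of the 9 windows without one 0 were, with 1 open in a single replicate. Over all protein-coding genes 49.2% of 30803 windows with a coding transcript and 10.2% of 13667 windows without one were open in both, so the split of the 10 genes goes the same way as the rest.

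The open windows were also richer in CpG. The ratio of observed to expected CpG, which is high in CpG islands, had a median of 0.578 (0.154 to 0.927) in the 19 windows open in both replicates and 0.198 (0.0900 to 0.320) in the 19 closed ones. Over all genes the medians were 0.557 in open and 0.204 in closed windows, so the 10 genes resemble the rest in this. With a ratio over 0.35, a value set after seeing the data, 13 of 14 windows of the 10 genes (92.9%) were open in both, against 83.4% over all genes. At or under it 6 of 28 (21.4%) were open, against 11.1% over all genes. Those 6 included the window of the highest Rbfox3 peak, with a ratio of 0.197, and a further Rbfox3 window with 0.154. The highest Rbfox3 peak counts as a promoter peak neither with a 500 bp window nor with basic transcripts.

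**Figure D3:**
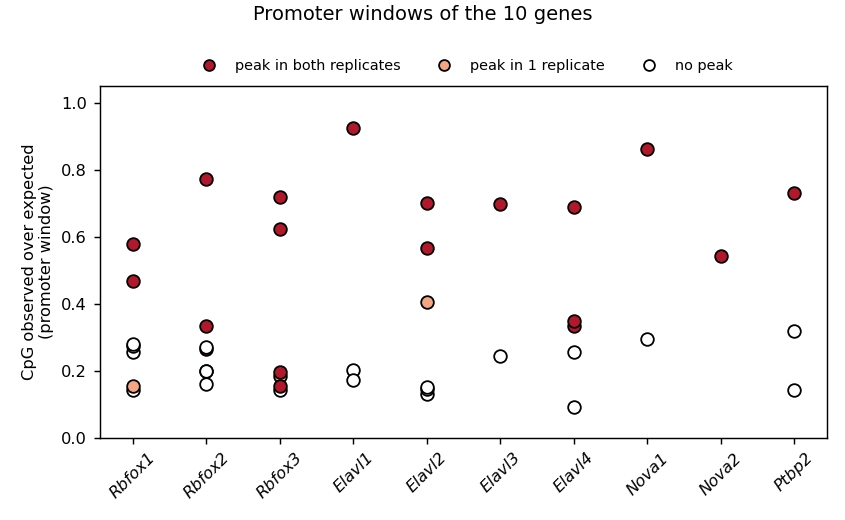
The observed over expected CpG ratio (y axis) of each promoter window of the 10 genes, filled dark where a peak lay in it in both replicates, light where in 1, and open where in neither. Windows with no peak all lie at 0.320 or under, and Rbfox3 has 2 open windows under 0.2.

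The Rbfox3 peak at 404 kb held 2 shared footprints, one with TAATTA, the core letters bound by homeobox factors, and one with CCAAT. The homeobox letters stood in 0.0958% of all shared footprints and in 1 of 126 (0.794%) at the 10 genes. That match depends on the 5 bp added to each side: with 0 bp added, TAATTA stood in 0 of 126 and in 0.0286% of all. The peak is shown on the minus strand, the strand of the gene, with the footprints in capitals; TAATTA begins in the lower case letters before the second footprint:

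Rbfox3 peak at an internal start: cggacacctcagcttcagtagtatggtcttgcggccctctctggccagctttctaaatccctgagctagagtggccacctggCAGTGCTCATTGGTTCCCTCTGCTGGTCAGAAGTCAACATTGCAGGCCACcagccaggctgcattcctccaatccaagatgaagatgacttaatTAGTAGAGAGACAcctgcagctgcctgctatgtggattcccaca

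Outside promoters, the 10 genes carried between 0 and 38 shared peaks each, counted in replicate 1 in the gene and 10 kb either side. The median was 3 for the 10 genes and 1 for all protein-coding genes. The 10 genes are long, with a median of 136 kb and 17.4 kb for all genes, and per 100 kb the medians were 1.64 and 1.13. The counts differed widely between the genes. Rbfox1, at 1526 kb, had 75 such peaks in replicate 1 and 52 in replicate 2, of which 38 were shared. Among the 2194 longest genes 99.6% had fewer, but its density of 2.46 per 100 kb exceeded only 62.9% of all genes. Rbfox3, at 422 kb, had 29 and 37 with 18 shared, a density of 4.07 above 79.4% of genes. The short genes Elavl3 and Nova2 were densest, with 5 shared peaks each and 8.77 and 8.41 per 100 kb, above 95.4% and 94.8% of genes. Each of these counts includes a pair of peaks that overlap each other, and the Elavl3 count includes a peak on an exon of Zfp653.

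Several long genes had fewer than the median of their length bin. Elavl2, at 150 kb, had 1 shared peak, Elavl4, at 148 kb, had 2, and Rbfox2, at 228 kb, had 4, where their length bin had a median of 5. That bin runs from genes shorter than these to genes longer than Rbfox1, so its median is not that of genes of their length. Elavl1 and Ptbp2 had 1 each, where their bins had medians of 1 and 2. The single Ptbp2 peak was weak, at 0.283 and 0.310, and lay past the 3′ end, 72.3 kb from the 5′ end.

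**Figure D4:**
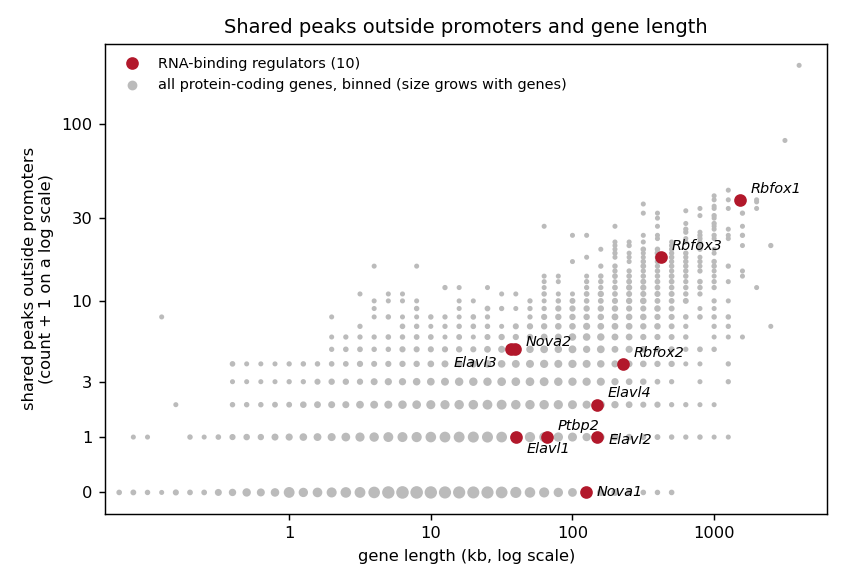
Shared peaks outside promoters (y axis, count + 1 on a log scale) against gene length (x axis, kb, log scale) for the 10 genes (red) and all protein-coding genes in bins (grey, larger where more genes fall). Rbfox1 and Rbfox3 lie high at great length, Nova1 lies at 0, and Elavl3 and Nova2 lie together at 5.

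Position within the gene also differed. Of the 38 shared Rbfox1 peaks 16 lay upstream or nearer the 5′ end than the 3′ end and 22 nearer the 3′ end or downstream, with a median distance of 927 kb from the 5′ end. Of the 18 in Rbfox3, 14 lay upstream or nearer the 5′ end and 4 nearer the 3′ end. All 5 Elavl3 peaks lay upstream or nearer the 5′ end, 3 of them upstream of the gene, where 2 overlap each other. These flanking Elavl3 peaks stand on or close to other genes, so their gene cannot be assigned from position. One of them, chr9:22057920-22058460, overlaps an exon of Zfp653.

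**Figure D5:**
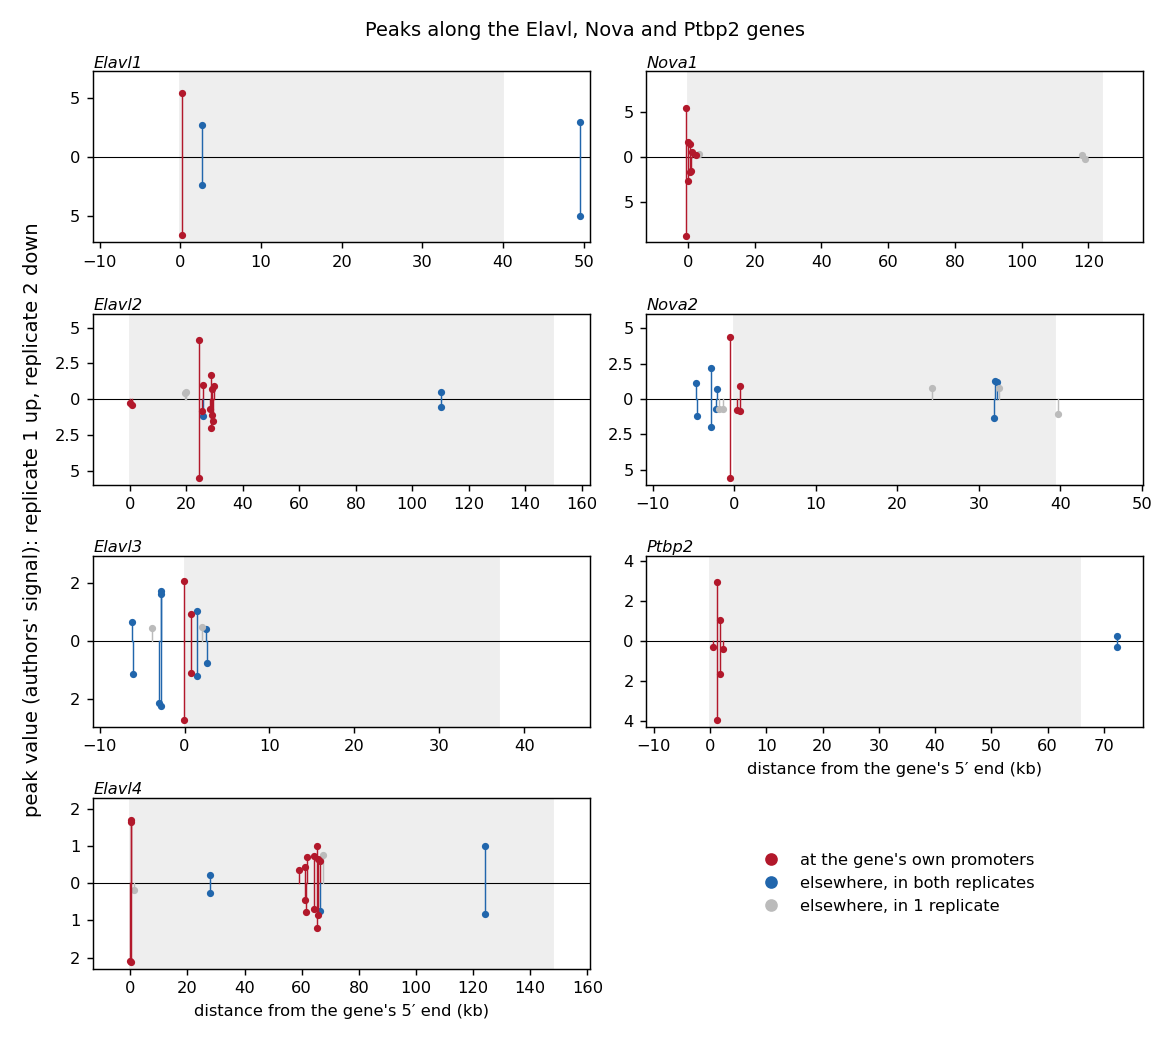
Peaks along Elavl1, Elavl2, Elavl3, Elavl4, Nova1, Nova2 and Ptbp2, drawn with the distance from the 5′ end (kb) on the x axis and the authors' signal on the y axis, replicate 1 upward and replicate 2 downward. Shading and colours mark the gene, its own promoters (red) and peaks elsewhere in both replicates (blue) or 1 (grey), and the scale differs between panels. Nova1 shows no blue peak, and the main Elavl2 peak stands 24.3 kb inside the gene. The blue peak of Elavl1 past its 3′ end is at the promoter of Timm44.

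The 4 strongest shared peaks outside promoters had a sequence feature in common. The 4 highest at the 10 genes were an Rbfox3 intron peak (chr11:118738961-118739180) with 2.89 and 3.16, an Rbfox1 intron peak (chr16:6018761-6018960) with 2.93 and 2.89, the single Elavl1 intron peak (chr8:4322581-4322780) with 2.69 and 2.39, and a second Rbfox1 intron peak (chr16:5931821-5932020) with 2.35 in each replicate. Each held a shared footprint with the core of the motif of CTCF, the zinc finger protein that anchors chromatin loops: CC, then AGG after any 3 letters, then GG after any 1. An Rbfox3 peak with 1.93 and 2.40 and a Nova2 peak with 2.20 and 1.97 followed in mean value, and neither held such a footprint. The highest flanking peak of Elavl3, chr9:22054421-22055080, with 1.73 and 2.23, came next and held one. The 5 footprints are printed with 5 bp added to each side, on the strand that reads the motif, which stands in capitals:

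Rbfox3, 173 kb from the 5′ end, chr11:118739051-118739087, minus strand: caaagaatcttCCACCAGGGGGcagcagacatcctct
Rbfox1, 134 kb from the 5′ end, chr16:6018829-6018870, minus strand: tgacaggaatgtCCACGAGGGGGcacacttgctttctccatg
Elavl1, 2.73 kb from the 5′ end, chr8:4322650-4322704, minus strand: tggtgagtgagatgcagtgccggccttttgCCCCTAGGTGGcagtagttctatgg
Rbfox1, 46.6 kb from the 5′ end, chr16:5931905-5931947, minus strand: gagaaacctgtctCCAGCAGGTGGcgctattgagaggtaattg
Elavl3, 2.73 kb upstream, chr9:22054974-22055004, minus strand: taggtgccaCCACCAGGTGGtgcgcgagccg

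All 5 read the motif on the minus strand, which for Rbfox1 is the strand opposite the gene and for the others the strand of the gene. The borders of these footprints differed by at most 3 bp between the replicates. In the central 201 bp of shared peaks outside promoters these letters stood in 8 of 75 peaks at the 10 genes (10.7%), and in 5778 of 47593 (12.1%) over the genome, so peaks with them were no more frequent here. Values differed, as a description without a test. Peaks with the letters had a median mean value of 2.00 (0.702 to 3.02, 8 peaks) and those without 0.907 (0.232 to 2.16, 67 peaks). Over the genome the medians were 1.11 with and 0.684 without the letters. Of the 1000 highest such peaks in the genome 340 held the letters. Those all had mean values of 3.00 or more, whereas the 10 highest at the 10 genes reached down to 1.59, so these sets are not alike. Of the 10 highest at the 10 genes, which include a pair of Elavl3 peaks that overlap each other, 5 held the letters. This count also used the central 201 bp, so its 5 peaks are not the same as those of the 5 printed footprints. It includes a further Rbfox3 intron peak, chr11:118740061-118740300, with 1.63 and 1.66. It leaves out the Elavl3 peak, whose letters lie outside that window, so that peak is among the 67 without them. Within footprints the letters stood in 13 of 126 at the 10 genes (10.3%) and in 5.77% of all shared footprints. Not all 13 lay in the strongest peaks: Elavl2 had 2 and Elavl4 had 2, in GC-rich DNA at or near their start sites.

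The second highest Rbfox1 peak and its sequence were chosen after their values were seen. The whole 200 bp of the highest one, on the plus strand with both shared footprints in capitals, show that the CTCF letters stand inside one footprint and that a second, without any of the searched motifs, stands near the 5′ border:

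Rbfox1 intron peak: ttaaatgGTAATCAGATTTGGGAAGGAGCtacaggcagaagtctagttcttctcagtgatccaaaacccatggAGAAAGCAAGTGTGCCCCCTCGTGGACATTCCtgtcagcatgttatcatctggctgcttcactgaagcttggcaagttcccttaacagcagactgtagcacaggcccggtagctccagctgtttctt

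Rbfox3 had a further peak of interest inside an intron, also chosen after its letters were seen. At chr11:118584925-118585094, with values of 0.785 and 0.848, a shared footprint held the core of RE1 with 1 mismatch. RE1 is the element bound by the repressor REST, which keeps neuronal genes silent outside neurons. Up to 2 mismatches were allowed, and 97 of all 90769 shared footprints (0.107%) and 1 of 126 at the 10 genes (0.794%) matched. The footprint is printed on the minus strand, the strand of the gene, with the match in capitals:

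Rbfox3 RE1 letters, chr11:118584988-118585025: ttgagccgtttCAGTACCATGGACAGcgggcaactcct

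An intron of Rbfox3 also contains the long noncoding RNA gene Gm11750, whose exons carried the second highest Rbfox3 peak outside promoters (chr11:118793501-118793860, 1.93 and 2.40). One of its shared footprints packs CAGATG, the E-box preferred by NeuroD factors, overlapping GATGGCG of YY1, and GTGGGCG of EGR overlapping GGGCGG. It is shown with the E-box in capitals and cut to 30 bases, so the last G of GGGCGG falls just past the letters printed:

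Rbfox3, Gm11750 exon, chr11:118793681-118793710, plus strand: tgcccagccgagCAGATGgcggcgtgggcg

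CAGATG stood in 6 of 126 shared footprints of the 10 genes (4.76%) and in 2.82% of all. Of the 6, 4 were in Rbfox1, and the other two were this one and the one shared Elavl2 peak outside promoters, a weak intron peak of 0.481 and 0.538:

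Elavl2 intron, chr4:91290530-91290552, minus strand: gaagcaacagCAGATGccctttt

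In Rbfox3 a run of peaks was found in 1 replicate only. Replicate 2 had a run of 16 peaks within 11.3 kb (chr11:118875601-118886900), between 24.8 and 35.9 kb from the 5′ end, where replicate 1 had 0. Their values ran from 0.302 to 0.864 with a median of 0.387, under the median of 0.734 over all peaks of replicate 2, and their widths from 31 to 480 bp. The lowest false discovery rate under them was 6.64e-14. These 16 made up most of the 20 Rbfox3 peaks that replicate 2 did not share, so its higher count of Rbfox3 peaks outside promoters, 37 and 29, rests on this run. The run was chosen after its values were seen. In Rbfox1 the imbalance was the other way: 37 of 75 replicate 1 peaks outside promoters were unshared, with a median replicate 1 value of 0.516. The 38 shared ones had a median of 0.788, taken over the means of both replicates, so these medians are not the same measure.

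Shared footprints numbered 3 to 30 per gene, with a median of 9.5 for the 10 genes and 4 for all protein-coding genes. In the length bins of the 10 genes the medians were higher than over all genes, at 5 to 7. The 6 genes in the longest bin, with a median of 7, had 3 (Nova1), 8 (Elavl4), 11 (Elavl2), 18 (Rbfox2), 24 (Rbfox3) and 30 (Rbfox1). That bin mixes genes of very different length, so its median is not that of genes as long as Nova1 or Elavl4. Rbfox1 had 171 footprints in replicate 1 and 122 in replicate 2, of which 30 of replicate 1 were shared, Rbfox3 had 70 and 97 with 24 shared, and Rbfox2 had 53 and 30 with 18 shared. Nova1 had the fewest, 13 in each replicate with 3 shared, all 3 in its promoter. Over the 10 genes 126 of 455 footprints in replicate 1 (27.7%) and 127 of 398 in replicate 2 (31.9%) were shared, against 31.8% and 37.5% of all footprints. Of the 126, 55 (43.7%) lay at the genes' own promoters, and 39 (31.0%) held at least 1 of the 17 motifs. The same shares over all shared footprints were not computed, so whether these figures are unusual is not known. All 5 shared Ptbp2 footprints and 12 of 18 Rbfox2 footprints were promoter ones, whereas 5 of 30 were in Rbfox1.

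Promoters of related genes give the scale. All 19 other neuronal splicing regulators had a promoter peak in both replicates, with a median value of 2.79 and a range of 0.322 to 5.70. The 4 highest were Ptbp1 at 5.70 ± 0.712, Khdrbs1 (Sam68) at 4.68 ± 0.443, Srrm3, a paralog of the microexon regulator Srrm4, at 4.13 ± 0.817 and Mbnl2 at 4.10 ± 0.840. The 25 general splicing factors, the SR proteins, hnRNPs and splice site recognition factors found in all cells, were all open too, with a median of 5.83 and a range of 3.53 to 10.6. Hnrnpc at 10.6 ± 1.83, Hnrnpk at 8.36 ± 1.19, Hnrnpa2b1 at 8.30 ± 1.22 and U2af2 at 8.09 ± 1.24 led them, each above Nova1, the highest of the 10 genes. Only Nova1 and Elavl1 of the 10 exceeded the general factors' median. Outside promoters the general factors had the fewest peaks, with medians of 3 shared peaks for the 10 genes, 3 for the other neuronal regulators and 1 for the general factors. Their median lengths were 136, 89.3 and 13.7 kb, and per 100 kb the medians were 1.64, 2.03 and 1.97.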

How the data were processed

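The DNase-seq files were deposited per replicate on mm10 (GRCm38), per the deposited file descriptions; no aligner or peak caller is named in what was used here. Of 2 peak lists per replicate the one with more rows was used; its signal values are as deposited, with their unit not stated. The deposited p-value columns are false discovery rates: 0.01 for every footprint and under 0.05 for cut-rate stretches. Genes came from GENCODE M21 and sequences from RefSeq GRCm38.p6, which is the C57BL/6J reference, so CAST/EiJ alleles are not shown. A promoter was 1 kb either side of any start site. A peak counted as shared with 1 bp of overlap, and a footprint when at least 50% of it was covered by 1 footprint of the other replicate. Peaks outside promoters exclude those at any annotated gene's start. For motifs, 5 bp was added to each side of a footprint and both strands were searched for 17 motifs: those spelled in the text, NFI (TTGGCA), ETS (CCGGAAG), SOX (ACAATG), AP-1 (TGANTCA), CRE, NRF1, POU octamer and MEF2, which can overlap each other. Values are the authors' and the SD is over 2 replicates. No test was run, since there is 1 group. The overlap and motif steps (Python 3.11.15, NumPy 2.4.6) were tested on simulated data. The gene names shown are all 10 genes and, of each comparison list, the 4 highest promoters and any gene without a peak in both replicates. Members, lists and motifs were chosen with earlier results of these data known. The count over 1 marker list is not reported here.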

Additional observations from a re-analysis of the deposited data

How the results depend on the processing

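A promoter peak in both replicates was found at all 10 genes with the shorter peak list, the 500 bp promoter window and basic transcripts. The stronger part of each list, the 2500 bp window and either replicate alone also gave all 10, but these runs could not lose a gene and so do not bear on the count. The stronger part keeps peaks at or above the list's median, 0.594 and 0.734 in replicates 1 and 2, and the highest promoter peak of every one of the 10 genes was at least 1.56. The median of shared peaks outside promoters, 3 in the values above, was 1.00 with the shorter list and 5.50 with 50 kb flanks, and 4 to 5 when all peaks of a single replicate were counted. It lay between 2 and 4 under the other alternatives. The median of shared footprints, 9.50, was 27.0 with 50 kb flanks and 27.0 to 30 when all footprints of a single replicate were counted, which drops the condition of sharing, and between 7 and 10 otherwise. Peak list, promoter window and start sites do not enter footprint counts. Of 50 recomputed promoter values 48 moved by less than 1 SD, and 10 of the 50, from the stronger part of each list, could not move. Rbfox3 was 1.39 in place of 1.90 with the 500 bp window and with basic transcripts, which leave out its peak at 404 kb. With 0 and 10 bp added, CTCF letters stood in 8.73% and 11.1% of the 126 footprints and CCAAT in 3.97% and 9.52%. Counting in replicate 2 and joining touching peaks were chosen after seeing the data. No paired analysis was possible because the series has 1 group. The unit and depth behind the peak values are unknown here, so small differences between genes cannot be weighed against counting error.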
